A study of Mus musculus with 2 samples.

Results

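The cells described here are tuft cells of the mouse thymic medulla that carried transcripts of Rgs21, Ovol3 and Tas2r105. They were taken from 10x Genomics 3′ single-cell libraries of medullary thymic epithelial cells (mTECs), which had been sorted for EPCAM and against Ly51. A cell was kept with at least 500 detected genes, at least 1000 unique molecular identifiers (UMIs, each counted as 1 captured transcript) and at most 15% mitochondrial UMIs. It counted as tuft where Trpm5, Dclk1 and Alox5ap together made up at least 10 of 10000 UMIs. A tuft-gated cell was a member where Rgs21, Ovol3 and Tas2r105 summed to 2 or more UMIs. This gave 478 members among 2661 tuft-gated cells and 13307 kept cells. The other 2183 tuft-gated cells were the main comparison.

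The mice carried floxed alleles of Ikaros, a transcription factor whose gene is Ikzf1. Of the members, 304 came from the library labelled Foxn1-Cre(+) Ikaros+/fl (hereafter +/fl). The remaining 174 came from the library labelled Foxn1-Cre(+) Ikarosfl/fl (hereafter fl/fl). Both libraries thus carried Foxn1-Cre, which acts in thymic epithelium, and at least 1 floxed Ikaros allele. How many mice were used, how old they were and of which sex, and which exons Cre removes are not in the labels. The names of the deposited matrices contradict the labels: the +/fl library bears a knockout name and the fl/fl library a control name. Each direction below therefore holds between libraries as labelled. With 1 library per genotype no difference between libraries was tested, and every 95% interval covers counting error only.

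Tuft cells are chemosensory epithelial cells of the gut, airway and thymus that depend on the transcription factor Pou2f3. They share the signalling chain of taste cells, in which a receptor activates the G protein gustducin (Gnat3 with Gnb3 and Gng13), phospholipase Plcb2 makes the messenger that opens the calcium channel Itpr3, and calcium opens the cation channel Trpm5. In the thymus they belong to the mimetic mTECs, which carry programmes of peripheral cell types. Rgs21 belongs to the RGS proteins, which speed the switching-off of G proteins, Tas2r105 is a bitter taste receptor, and Ovol3 is a zinc-finger gene of the OVO family.

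The 250 bases before the start sites of the 3 genes that chose the cells, and of the muscle gene Myog, are printed because these genes were found in the same cells. They come from the RefSeq annotation of GRCm38.p6 and read 5′ to 3′ on the gene's strand. The RefSeq start sites are not all those of the GENCODE gene positions given below: the Ovol3 window lies apart from that gene, and the Tas2r105 and Myog windows overlap theirs. Capitals mark matches on either strand to the octamer ATGCAAAT, the motif of POU factors such as Pou2f3, or to the E-box CANNTG of basic helix-loop-helix factors such as Myog and Ascl2.
Rgs21, chr1:144567668-144567917, minus strand: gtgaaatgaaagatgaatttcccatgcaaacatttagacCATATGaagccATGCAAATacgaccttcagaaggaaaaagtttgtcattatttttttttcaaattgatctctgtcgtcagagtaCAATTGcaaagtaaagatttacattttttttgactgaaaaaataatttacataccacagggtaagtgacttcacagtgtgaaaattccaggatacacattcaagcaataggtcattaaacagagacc
Ovol3, chr7:30236766-30237015, minus strand: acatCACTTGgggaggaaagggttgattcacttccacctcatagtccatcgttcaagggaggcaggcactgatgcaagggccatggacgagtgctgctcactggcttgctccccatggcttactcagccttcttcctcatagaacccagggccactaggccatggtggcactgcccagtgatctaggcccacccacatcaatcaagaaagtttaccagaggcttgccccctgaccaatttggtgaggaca
Tas2r105, chr6:131687464-131687713, minus strand: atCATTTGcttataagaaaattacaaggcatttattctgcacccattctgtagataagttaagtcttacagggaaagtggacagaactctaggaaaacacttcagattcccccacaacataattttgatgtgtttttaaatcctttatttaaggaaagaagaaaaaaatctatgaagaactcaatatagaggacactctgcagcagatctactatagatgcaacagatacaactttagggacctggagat
Myog, chr1:134289754-134290003, plus strand: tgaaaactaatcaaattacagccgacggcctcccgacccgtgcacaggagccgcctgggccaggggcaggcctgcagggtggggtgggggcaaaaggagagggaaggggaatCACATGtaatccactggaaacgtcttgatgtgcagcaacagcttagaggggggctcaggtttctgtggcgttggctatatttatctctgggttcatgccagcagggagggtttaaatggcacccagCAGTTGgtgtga
The Rgs21 window held 1 octamer and 2 E-boxes, the Ovol3 and Tas2r105 windows 0 octamers and 1 E-box each, and the Myog window 0 octamers and 2 E-boxes. Of 32851 promoter windows of the same length, 1.60% held the octamer and 66.2% an E-box. The motifs can overlap, which they did not in the Rgs21 window, and a match is a description of letters, not a binding site.

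Members were deeper than the other tuft-gated cells. Their median was 16759.5 UMIs labelled +/fl and 11551.5 labelled fl/fl, against 8780 and 5498.5 UMIs in the others. Kept cells as a whole had medians of 11057 and 8542.5 UMIs. Median mitochondrial shares were 7.81% and 7.71% in members and 8.65% and 8.88% in the others. The libraries shared 25 of 18399 barcodes, 11 of them among kept cells and 0 among members. Among members, 8.22% and 12.1% fell in the highest Scrublet doublet scores, against 5.91% and 10.8% of the others. Sex was not shared between the libraries. Levels are given as UMIs per 1000000 UMIs of the summed cells (CPM). Where a pair of levels is followed by another pair, each gives members and then the other tuft-gated cells, first labelled +/fl and then labelled fl/fl. Xist, which coats the silenced X, stood at 1917 CPM in members labelled +/fl and at 0 UMIs in those labelled fl/fl. Sex and the labelled genotype therefore cannot be told apart.

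The 3 genes that chose the members are given as a description. Rgs21 (ENSMUSG00000098509, chromosome 1, 144516648 to 144567667 of GRCm38) was found in 209 of 304 members labelled +/fl and 125 of 174 labelled fl/fl. Ovol3 (ENSMUSG00000100512, chromosome 7, 30233439 to 30235725) was found in 187 and 138. Tas2r105 (ENSMUSG00000051153, chromosome 6, 131686532 to 131687495) was found in 145 and 86. Thus 182 members (59.9%) labelled +/fl and 123 (70.7%) labelled fl/fl held at least 2 of the 3 genes, and 55 and 52 held all 3. Their summed UMIs had a median of 5 and 6 per member and reached 61 and 59 in single cells. At the threshold, 62 and 37 members held exactly 2 such UMIs, and 136 and 70 tuft-gated cells held exactly 1. Their gate genes lay at medians of 25.4 and 27.7 per 10000 just inside and 29.5 and 27.5 just outside. At the edge of the tuft gate, 91 and 48 members had 10 to 15 gate UMIs per 10000, and 107 and 76 cells with 2 or more UMIs of the 3 genes had 5 to 10.

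The same transcripts were not confined to tuft-gated cells. Cells outside the gate with 2 or more UMIs of the 3 genes numbered 317 labelled +/fl and 216 labelled fl/fl, about as many as the members. They held 71.6% and 65.8% of all Ovol3 UMIs of kept cells, against 25.9% and 30.2% in members. Rgs21 was split more evenly and in opposite order, with 1031 UMIs in members and 905 in the cells outside labelled +/fl, and 584 and 657 labelled fl/fl. Tas2r105 had 57.4% and 45.2% in members and 33.9% and 46.8% outside. In T-lineage cells, which should lack these genes and had medians of 4594 and 3426 UMIs, 1 of 99 and 2 of 179 cells held 2 or more. The bar chart gives cells by number of such UMIs in bins of unequal width, which cannot show whether the counts have a gap.

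**Figure D1:**
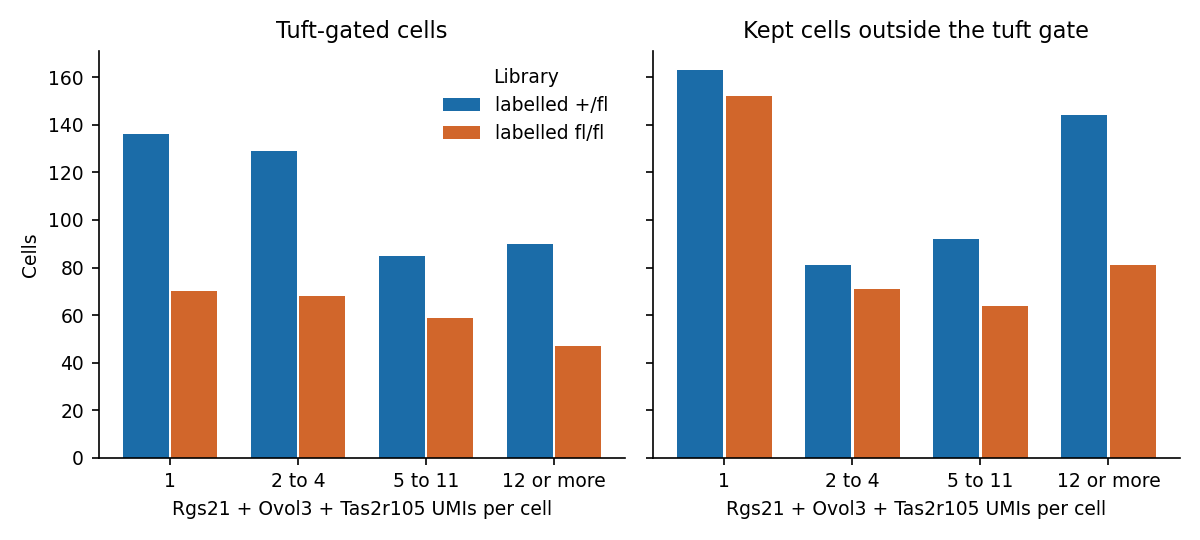
Bars give the number of cells (vertical axis) with 1, 2 to 4, 5 to 11, and 12 or more summed Rgs21, Ovol3 and Tas2r105 UMIs (horizontal axis), inside and outside the tuft gate, in each library. Inside the gate the library labelled +/fl had 136, 129, 85 and 90 cells and the library labelled fl/fl 70, 68, 59 and 47, while outside the gate 144 and 81 cells reached 12 or more.

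Core tuft genes that the rule did not use were examined next. All 14 were found in members of both libraries, with summed levels of 13871 and 16039 CPM against 2063 and 2521 CPM in T-lineage cells. T-lineage cells are not epithelial, and the 14 include the keratin genes Krt8 and Krt18. This contrast therefore does not set tuft cells apart from other mTECs. The other tuft-gated cells had 15462 and 15388 CPM. Cells outside the gate with 2 or more UMIs of the 3 genes had 5498 and 8304 CPM. Pou2f3, the tuft master regulator, had 138 CPM in members and 120 CPM in the other tuft-gated cells labelled +/fl, and 150.4 and 117 CPM labelled fl/fl. Lrmp, a membrane protein gene of tuft and taste cells, had 3309 and 2641 CPM, and 3256 and 2280 CPM. Other core genes lay lower in members. The adaptor gene Sh2d6 had 504 and 953 CPM, and 509.6 and 723 CPM. Of the 14 core genes 3 were higher in members in both libraries, namely Pou2f3, Lrmp and Gng13, and 8 were lower in both. Vil1, among the 8, reached the 20 CPM needed to be counted only in the other tuft-gated cells. Its direction was therefore fixed. The median log2 ratio of members over other tuft-gated cells was -0.34 labelled +/fl and -0.06 labelled fl/fl, with 1 CPM added to both levels as in all ratios here. The median over all genes counted was 0.01 and 0.02. Of all genes counted, 3486 of 6836 labelled +/fl and 3684 of 6963 labelled fl/fl were higher in members. Each list count of members against the others below is to be read beside these. The gate genes themselves, Dclk1 among them (688 and 1266 CPM, and 719 and 1150.4 CPM), were mostly lower in members, at medians of 19.8 and 20.7 gate UMIs per 10000 against 34.4 and 30.9.

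Members made up 16.2% (14.6 to 17.9) of tuft-gated cells labelled +/fl and 22.2% (19.3 to 25.3) of those labelled fl/fl. Because a deeper cell has more chances to reach 2 UMIs, every cell was also thinned to 5000 UMIs and gated again, which left 1483 and 512 tuft-gated cells. The shares were then 11.7% (10.1 to 13.5) and 23.4% (19.8 to 27.4), and at 2000 UMIs 5.31% and 10.2%. Members thus took a larger share of the tuft-gated cells in the library labelled fl/fl at each of these depths. Their share of all kept cells had the other order, with 5.96% (5.33 to 6.65) labelled +/fl and 2.12% (1.82 to 2.46) labelled fl/fl, or 4.40% and 2.11% after thinning to 5000 UMIs. Tuft-gated cells were 36.8% and 9.55% of kept cells. Such shares sum to a whole within each library, and the orders give no numbers of cells per thymus.

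Among 6433 genes with at least 20 CPM in members or other tuft-gated cells and at least 20 UMIs in both libraries, 67 (1.04%) were 2-fold or more higher in members in both libraries and 21 (0.326%) were lower, or 88 (1.37%) in all. The 67 included the 3 genes that chose the cells, which leaves 64. A gene could pass the level filter through members alone, as Scn2a did, and could then only be higher in members. The same holds for the others and the lower genes. How many genes passed so was not counted. Summed levels weight deep cells more, and with every cell weighted alike, as the mean of per-cell CPM, the counts were 85 and 51. Within single libraries, 2.53% of 6836 genes were higher labelled +/fl and 2.02% of 6963 labelled fl/fl. The scatter of ratios shows the named genes.

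**Figure D2:**
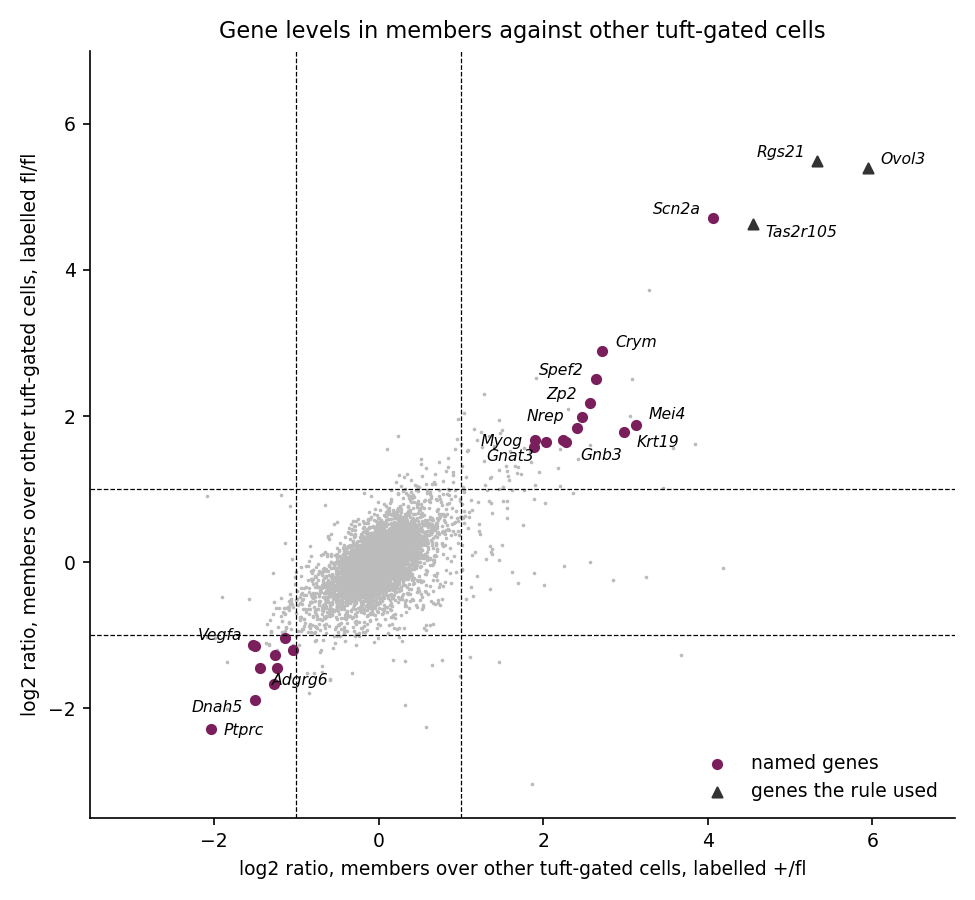
Each point is a gene, placed by its log2 ratio of members over other tuft-gated cells in the library labelled +/fl (horizontal) and in the library labelled fl/fl (vertical), with dashed lines at 2-fold. Named genes are filled circles and the 3 genes that the rule used are triangles; Scn2a and Crym lie far above 2-fold in both libraries and Ptprc lies lowest of the named genes in both.

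Crym had the highest ratio by the naming rule, which leaves out the 3 genes that chose the cells and the gate genes and ranks genes of at least 50 CPM by the smaller of the ratios in both libraries. Crym encodes mu-crystallin, a thyroid hormone binding protein, and lies on chromosome 7 (ENSMUSG00000030905, 120186380 to 120202111 of GRCm38). Its level was 489 CPM (472 to 507) in members and 73.4 CPM (69.4 to 77.7) in the other tuft-gated cells labelled +/fl, which differ 6.66-fold (6.23 to 7.13). Labelled fl/fl it was 250.3 CPM (230.3 to 272) and 32.9 CPM (27.8 to 38.6), which differ 7.62-fold (6.35 to 9.18). After thinning to 5000 UMIs, 67.2% and 47.2% of members held a Crym UMI, against 24.0% and 10.6% of the other tuft-gated cells and 6.25% and 8.70% of T-lineage cells. Cells under that depth were left out, 17 and 15 members and 404 and 271 others. Unthinned shares were 84.2% and 55.2% of members and 33.2% and 14.4% of the others. Crym therefore lay above its background in members of both libraries. The list of 11 genes of thyroid hormone handling did not go with it, since of the 4 that passed the level filter 2 were higher and 2 lower in both libraries, and the receptor gene Thra had 40.6 and 64.2 CPM, and 31.1 and 48.7 CPM.

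Scn2a, a voltage-gated sodium channel gene of neurons (ENSMUSG00000075318, chromosome 2, 65620771 to 65767447 of GRCm38), was close to absent from the other tuft-gated cells. It had 50.3 CPM (44.8 to 56.2) in members and 2.06 CPM (1.43 to 2.88) in the others labelled +/fl. Labelled fl/fl it had 42.4 CPM (34.4 to 51.6) and 0.662 CPM (0.136 to 1.93), the latter from 3 UMIs. In cells thinned to 5000 UMIs it was found in 19.2% and 13.8% of members and in 0.770% and 0.295% of the other tuft-gated cells. It was found in 0 of 48 and 0 of 69 T-lineage cells, which allows shares of up to 6.25% and 4.35%. Of 49 voltage-gated channel genes listed, 6 passed the level filter in both libraries, and 3 were higher and 3 lower in both, with Scn2a alone at 2-fold. Scn2a itself passed only through members.

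Taste signalling genes were higher in members nearly throughout. Of the cascade list, 6 of 7 genes that passed the filter labelled +/fl and 10 of 10 labelled fl/fl were higher, with medians of 0.68 and 0.50 beside 0.01 and 0.02 over all genes. Of these, Itpr3 labelled +/fl and Itpr3, Trpm4 and Sucnr1 labelled fl/fl passed the filter only through members. Gnat3, the alpha subunit of gustducin, had 1668 CPM (1636 to 1701) in members and 406 CPM (396 to 416) in the others labelled +/fl, and 1603 CPM (1552 to 1655) and 512 CPM (491 to 533) labelled fl/fl. Gnb3, its beta subunit, had 992 and 204 CPM, and 1537 and 489 CPM. Gng13, the gamma subunit, had 1212 and 755 CPM, and 1919 and 1368 CPM. The 3 subunits of the G protein were thus all higher in members of both libraries, the alpha and beta subunits by 3-fold or more. Against other tuft-gated cells with 2 or more Gnat3 UMIs, a choice that itself raises Gnat3 in the comparison, the log2 ratios were 1.17 and 0.55 for Gnat3, in place of 2.04 and 1.65, and 1.89 and 1.29 for Gnb3, in place of 2.28 and 1.65. The calcium channel gene Itpr3 had 39.6 CPM (34.8 to 44.9) and 14.4 CPM (12.6 to 16.3), and 61.0 CPM (51.3 to 71.9) and 19.6 CPM (15.8 to 24.2). Plcb2 had 381 and 313 CPM, and 491 and 345 CPM. The effector channel Trpm5, a gate gene, had 493 and 624 CPM, and 606 and 585 CPM. Sucnr1, the succinate receptor of gut tuft cells, had 18.2 and 2.73 CPM, and 22.9 and 7.28 CPM.

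Bitter taste receptors other than Tas2r105 were higher in members too. Each was rare, so most did not reach the 20 CPM filter and are described from their UMIs. Of 35 listed Tas2r genes, 32 had a UMI in a tuft-gated cell of either library. Summed without Tas2r105, they had 130.1 CPM (121 to 140) in members and 49.7 CPM (46.3 to 53.2) in the other tuft-gated cells labelled +/fl, which differ 2.62-fold (2.37 to 2.89). Labelled fl/fl they had 210.1 CPM (192 to 230) and 56.2 CPM (49.6 to 63.6), which differ 3.74-fold (3.20 to 4.36). T-lineage cells had 2.71 and 0.785 CPM. Most of these UMIs lay in members with a Tas2r105 UMI, which held 566 of 795 labelled +/fl and 366 of 486 labelled fl/fl, at 216 CPM (199 to 235) and 354 CPM (319 to 392). Members with 0 Tas2r105 UMIs lay much closer to the other tuft-gated cells, at 65.6 CPM (57.4 to 74.7) and 93.8 CPM (77.7 to 112). Single cells held several receptors, since 32.2% and 36.2% of members had UMIs of at least 3 bitter receptors besides Tas2r105, and the most in one cell were 15 and 10. In the other tuft-gated cells, which were shallower, those shares were 3.56% and 1.64%.

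Single bitter receptor genes rested on few UMIs. Those plotted had at least 20 UMIs in tuft-gated cells labelled +/fl, which Tas2r104, Tas2r106, Tas2r107, Tas2r110 and Tas2r115 reached only through members, so no count of genes higher in members is given. Tas2r113, which had 57 UMIs in the other tuft-gated cells labelled +/fl, had 12.6 and 3.46 CPM, and 18.2 and 5.73 CPM. Tas2r106 had 7.37 and 0.910 CPM labelled +/fl, and 15.1 and 0.882 CPM labelled fl/fl. Tas2r107 had 4.09 and 0.243 CPM, and 11.7 and 0.882 CPM. Both lie close to Tas2r105 on chromosome 6, Tas2r107 from 131659118 to 131660149 and Tas2r106 from 131677960 to 131678886. Tas2r108, from 40493529 to 40494541 of the same chromosome, differed less, with 11.5 and 9.76 CPM, and 10.8 and 5.07 CPM. Tas2r118, farther away still from 23969161 to 23970060, had 6.22 and 1.21 CPM, and 8.65 and 1.54 CPM. Whether the ratios went with position was not tested. Whether reads of similar receptor genes were counted for one another was not tested. The plotted genes were chosen by their number of UMIs after the values were seen. Of the sweet and umami receptors, Tas1r1 had 27.8 CPM (23.8 to 32.3) in members and 4.37 CPM (3.42 to 5.50) in the others labelled +/fl, and 34.6 CPM (27.4 to 43.0) and 12.4 CPM (9.33 to 16.0) labelled fl/fl. Its partner Tas1r3 had 29.0 and 26.1 CPM, and 36.3 and 27.6 CPM.

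**Figure D3:**
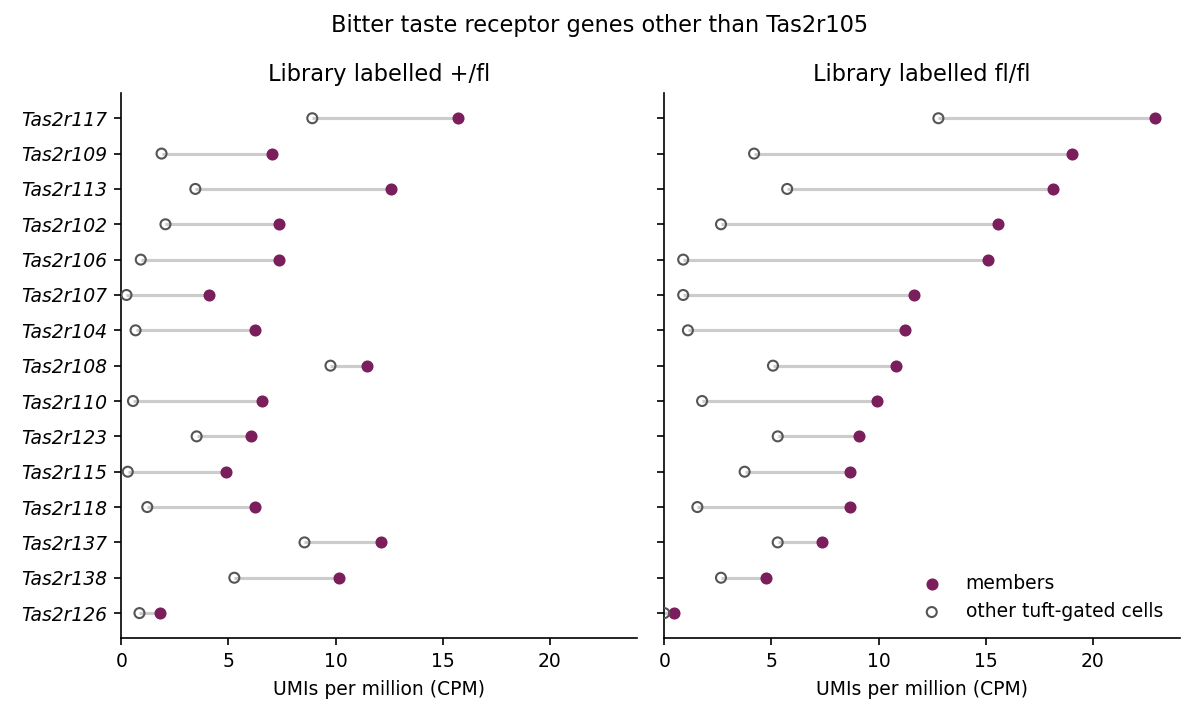
Summed levels in CPM (horizontal axis) of 15 bitter receptor genes other than Tas2r105, in members (filled) and other tuft-gated cells (open), 1 panel per library. The filled point lies right of the open point by a wide gap for Tas2r109 and Tas2r106 labelled fl/fl and by a narrow one for Tas2r137 and Tas2r126.

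Regulators of tuft cells did not differ as a group. Of 14 that passed the filter in both libraries without Ovol3, 5 were higher and 9 lower in both, with medians of -0.12 and -0.09. Ascl2, a helix-loop-helix factor of stem and tuft cells, had 37.0 CPM (32.3 to 42.1) in members and 19.3 CPM (17.3 to 21.6) in the others labelled +/fl, and 56.2 CPM (47.0 to 66.7) and 24.0 CPM (19.7 to 29.0) labelled fl/fl. Sox4 had 710.1 and 480 CPM, and 555 and 447 CPM. The homeobox gene Hmx2 went the other way, with 60.4 and 118 CPM, and 63.1 and 110.5 CPM, and so did Runx1, with 200.4 and 351 CPM, and 182 and 267 CPM. Among other RGS genes, 5 of 9 were higher and 3 lower in both libraries. Rgs2 had 1018 and 751 CPM, and 931 and 645 CPM, while Rgs13, a tuft-cell RGS gene, had 1458 and 2063 CPM, and 1107 and 1253 CPM.

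Genes of secreted tuft products split. Il10, the anti-inflammatory cytokine, had 165 CPM (154 to 175) in members and 51.2 CPM (47.8 to 54.8) in the others labelled +/fl, and 201 CPM (183 to 220) and 79.8 CPM (71.8 to 88.5) labelled fl/fl. It was found in 48.1% and 54.1% of members thinned to 5000 UMIs, in 18.0% and 26.5% of the others and in 0 of 48 and 0 of 69 T-lineage cells, with the same limits as for Scn2a. Il25, the cytokine by which tuft cells act on innate lymphoid cells, had 120.3 and 71.6 CPM, and 226 and 144 CPM. Most other effectors were lower, so that 3 of 11 listed genes were higher and 7 lower in both libraries. The prostaglandin synthase gene Ptgs1 had 387 and 695 CPM, and 300.4 and 400.1 CPM, and Chat, for acetylcholine synthesis, had 129 and 139 CPM, and 112 and 136 CPM.

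Genes that tuft cells share with blood cells were lower in members. Of 17 such genes that passed the filter in both libraries, 15 were lower and 1 was higher in both, with medians of -0.65 labelled +/fl and -0.33 labelled fl/fl. Ptprc in both libraries and Cd37 labelled fl/fl passed the filter only through the other tuft-gated cells. Ptprc is among the 15, so its direction there was set by the filter. Ptprc, which encodes CD45, the common surface protein of leukocytes, was the lowest of the named genes. It had 13.9 CPM (11.1 to 17.2) in members and 60.1 CPM (56.4 to 64.0) in the others labelled +/fl, which differ 4.32-fold (3.46 to 5.46). Labelled fl/fl it had 13.8 CPM (9.46 to 19.5) and 71.2 CPM (63.7 to 79.4), which differ 5.15-fold (3.58 to 7.66). After thinning to 5000 UMIs, 4.53% and 6.92% of members held a Ptprc UMI, against 22.9% and 26.0% of the others. Nrgn, a calmodulin-binding protein gene, had 367 and 942 CPM, and 287 and 520 CPM. T-lineage markers were as low in members as in the others labelled +/fl, with summed levels of 24.4 and 22.0 CPM, and lower labelled fl/fl, with 9.51 and 34.2 CPM, against 7316 and 4150 CPM in T-lineage cells. Other named genes lower in members in both libraries were Adgrg6, an adhesion G-protein-coupled receptor (336 and 914 CPM, and 154 and 425 CPM), the dynein gene Dnah5 (42.4 and 121 CPM, and 32.9 and 124 CPM), and Vegfa (66.1 and 189 CPM, and 55.8 and 125 CPM). Cdhr2, Chrdl1, Slco4a1, Shf, Strip2 and Eppk1 completed the lowest 10. Fewer genes were lower against only those other tuft-gated cells with 2 or more Gnat3 UMIs. There 7 were 2-fold or more lower in both libraries, in place of 21, and 47 were higher, in place of 67. In that comparison Strip2 had log2 ratios of -0.72 and -0.69 and Eppk1 -0.83 and -0.55, under 2-fold. Adgrg6 labelled fl/fl stayed past 2-fold, at -1.11.

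The other named genes higher in members are given here. Krt19, a keratin of simple epithelia, had 447 CPM (430 to 464) in members and 55.7 CPM (52.1 to 59.4) in the others labelled +/fl, and 1191 CPM (1147 to 1237) and 347 CPM (330 to 365) labelled fl/fl. Mei4, needed for meiotic DNA breaks, had 65.1 and 6.55 CPM, and 87.8 and 23.2 CPM. Zp2, an egg coat gene, had 102 and 16.4 CPM, and 51.4 and 10.6 CPM. Spef2, a sperm flagellum gene, had 53.9 and 7.76 CPM, and 72.2 and 11.9 CPM. Nrep had 464 and 86.7 CPM, and 314 and 86.9 CPM. Cited2, a transcriptional co-regulator, had 836 and 225 CPM, and 1000 and 335 CPM. Epha5, an ephrin receptor gene, and the unannotated 2610016A17Rik completed the highest 12 with Crym, Gnat3, Gnb3 and Myog. No single member held over 24.6% of the UMIs of any of these 12 genes in a library.

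By co-detection in tuft-gated cells, the genes most like the 3 that chose the members were Krt19, Bdnf, Nrep, Il10 and Cited2. Likeness was the share of cells with a UMI of both over cells with either, and deeper cells have more chances to hold both. For Krt19 it was 38.4% labelled +/fl and 48.5% labelled fl/fl, and for Bdnf, a nerve growth factor gene, 37.0% and 45.3%. For Nrep it was 35.0% and 44.3%, for Il10 36.2% and 42.1%, and for Cited2 34.3% and 43.4%. Crym came next, with 38.2% and 37.6%. Scn2a and Myog ranked far lower by this measure, which favours widely detected genes, with 26.5% and 17.6% for Scn2a and 27.6% and 22.9% for Myog.

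Levels were also taken over bins of the number of UMIs of the 3 genes. The same UMIs chose the members. Summed levels per bin therefore cannot tell gradual differences between cells from a changing mixture of unlike cells. In tuft-gated cells with 0, 1, 2 to 4, 5 to 11, and 12 or more such UMIs, Crym had 66.5, 123, 259, 484 and 775 CPM labelled +/fl. Labelled fl/fl it had 28.0, 63.7, 77.3, 241 and 445 CPM. Gnat3 had 375, 626, 1289.7, 1589 and 2195 CPM, and 447, 928, 1208, 1353 and 2302 CPM. Both genes were thus above their lowest bin already in cells with 1 UMI, and highest in the last bin. Scn2a had 1.45, 6.40, 16.2, 46.0 and 95.3 CPM, and 0, 4.90, 10.3, 29.7 and 90.7 CPM. Ptprc ran the other way, with 62.6, 42.4, 21.9, 13.5 and 4.47 CPM, and 73.7, 55.6, 25.8, 9.89 and 5.50 CPM. Cells with 1 UMI, left out by the rule, lay between those with 0 and those with 2 to 4 for Crym, Gnat3, Scn2a and Ptprc in both libraries. Median depth over the same bins went from 8449 to 19562 UMIs and from 5362 to 12752, and its part in these levels was not tested. Among cells of 10000 to 20000 UMIs alone, 94 genes were 2-fold or more apart the same way in both libraries, beside 88 over all depths, and 59 genes were in both sets.

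**Figure D4:**
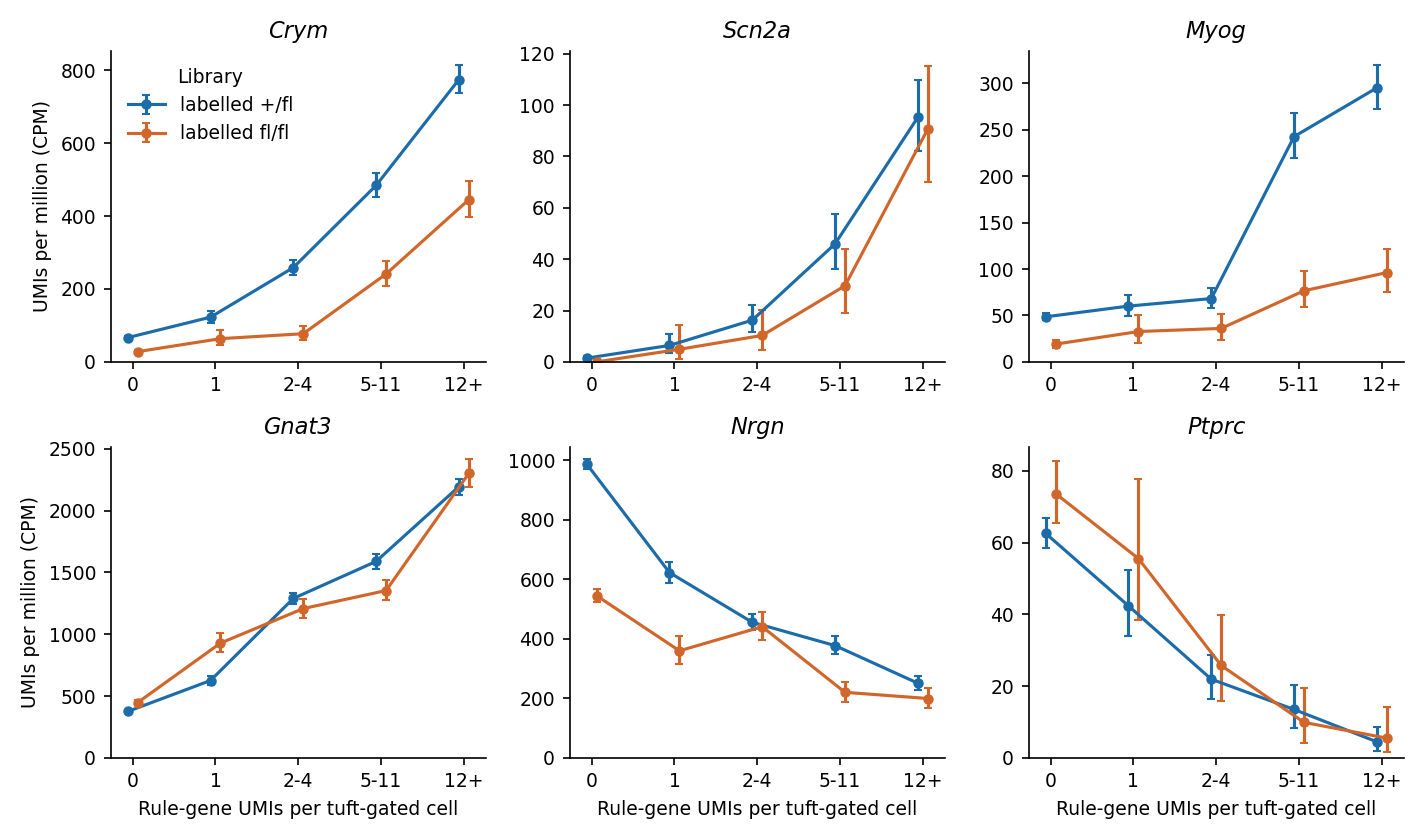
Summed levels in CPM (vertical axes) of 6 genes in tuft-gated cells binned by summed Rgs21, Ovol3 and Tas2r105 UMIs (horizontal axes), by library, with exact 95% Poisson intervals. Crym, Scn2a and Gnat3 climb over the bins in both libraries and Ptprc declines, while Myog climbs mainly from 5 UMIs on and higher labelled +/fl, where it reaches 295 CPM.

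Muscle genes were examined because Myog was among the markers of these cells. Myog encodes myogenin, a factor of muscle differentiation (ENSMUSG00000026459, chromosome 1, 134289989 to 134292548 of GRCm38). It had 189.7 CPM (179 to 201) in members and 49.97 CPM (46.6 to 53.5) in the other tuft-gated cells labelled +/fl, which differ 3.80-fold (3.47 to 4.16). Labelled fl/fl it had 69.2 CPM (58.9 to 80.8) and 21.0 CPM (17.0 to 25.6), which differ 3.30-fold (2.55 to 4.30). It was found in 180 of 304 members (59.2%) and 54 of 174 (31.0%), and after thinning in 36.2% and 15.1%, against 17.6% and 7.37% of the others and 4.17% and 1.45% of T-lineage cells. The level was uneven, since 60 and 7 members with 5 or more Myog UMIs held 80.8% and 46.9% of its UMIs. With members chosen on Rgs21 alone, the Myog log2 ratio labelled +/fl was 0.96 in place of 1.90.

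Other muscle genes were then set beside Myog. The determination factors Myod1, Myf5 and Myf6 had 0 UMIs in members of both libraries, which allows a share of up to 0.987% of members labelled +/fl and 1.72% labelled fl/fl. Labelled +/fl, 8 muscle genes passed the level filter, but 6 of them (Des, Acta1, Tnnt2, Tnnt3, Myl1 and Mylpf) only through members, so their count and median carry no weight. Labelled fl/fl 3 passed and 1 was higher, with a median of -0.02. Single members held large shares of several of these genes labelled +/fl, 45.8% for Des, 50.8% for Mylpf and 34.1% for Tnnt3. Myl1, a myosin light chain gene, had 136 and 3.09 CPM labelled +/fl, found in 25 members, of which 1 held 41.8% of its UMIs. Acta1, skeletal actin, was found in 5 members labelled +/fl, of which 1 held 76.0%, and had 0 UMIs labelled fl/fl. Members with 3 or more muscle genes besides Myog were 67 (22.0%) and 17 (9.77%), and they held 58.1% and 20% of the Myog UMIs of members. They had medians of 28898 and 22732 UMIs, and 20.9% and 29.4% of them were among the highest doublet scores. The part of doublets in these cells was not tested.

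Myog was higher still in the cells outside the gate. Those with 2 or more UMIs of the 3 genes had Myog at 351 CPM in the first library and 180.3 CPM in the second, and 50.1% and 39.6% of all its UMIs. They resembled members in Crym (360 and 210.4 CPM), Il10 (139 and 193 CPM) and Scn2a (38.6 and 53.7 CPM), and Ptprc was at 9.04 and 9.22 CPM. They had less of the gate genes, as the gate requires, and also less of the tuft genes that the gate did not use. Avil, an actin-binding tuft gene, had 269 and 429 CPM there against 885 and 1275 CPM in members, and Gnat3 had 590 and 901 CPM. They had more of the MHC class II genes, with summed levels of 16165 and 16894 CPM against 4325 and 4098 CPM in members. Aire-stage markers had 1436 and 1637 CPM against 347 and 439 CPM. Their median depth was 22644 and 13778.5 UMIs.

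MHC class II genes differed in direction between the libraries. Labelled +/fl, 8 of 8 that passed the filter were higher in members than in the other tuft-gated cells, with a median log2 ratio of 0.53, and labelled fl/fl 9 of 9 were lower, with a median of -0.47. Of these 9, Ciita passed the filter only through the other tuft-gated cells, so its direction was set by the filter. H2-Aa, an alpha chain, had 631 and 438 CPM, and 658 and 914 CPM, and the invariant chain Cd74 had 2150.1 and 1244 CPM, and 1854 and 2319 CPM. None reached 2-fold. The direction labelled +/fl was not firm, since it became -0.46 with members chosen on Rgs21 alone. A single member held 7.44% and 10.9% of all class II UMIs of members. In members H2-Aa differed little between libraries, while in the other tuft-gated cells it was 438 and 914 CPM.

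The libraries were then compared within members, fl/fl over +/fl as labelled. Of 6968 genes counted, 327 (4.69%) were 2-fold or more apart, 176 (2.53%) higher and 151 (2.17%) lower in the members labelled fl/fl. In the other tuft-gated cells 246 of 6905 (3.56%) were higher and 122 (1.77%) lower. The lists shared 139 genes called the same way, of 327 in members and 368 in the others. In 28 of the 327, 1 cell held 50% or more of the UMIs in the higher library. Such ratios rest on single cells.

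Members labelled fl/fl had less Ikzf1 (ENSMUSG00000018654), which spans 11685003 to 11772926 of chromosome 11 in GRCm38. The level was 51.1 CPM (45.6 to 57.1) labelled +/fl and 19.5 CPM (14.2 to 26.0) labelled fl/fl, which differ 2.63-fold (1.92 to 3.67). In the other tuft-gated cells 59.1 CPM stood against 20.1 CPM, or 2.95-fold (2.37 to 3.69). The intervals of both differences overlap, and within each library members and others had close levels. The 3′ tags do not show which exons the transcripts held, so this level does not tell which library carries the deletion.

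The genes highest in members differed between libraries to unlike degrees. Gnat3 was close, at 1668 and 1603 CPM, as was Scn2a, whose log2 ratio was -0.24. Crym was lower labelled fl/fl (-0.96 in members and -1.14 in the others) and so was Myog (-1.44 and -1.22). Krt19 was higher in members labelled fl/fl by 2.67-fold (2.53 to 2.81), at 447 and 1191 CPM, and by more in the other tuft-gated cells, at 55.7 and 347 CPM. Of all genes counted, 3713 of 6968 were higher labelled fl/fl in members and 3454 of 6905 in the other tuft-gated cells. Tuft core genes were higher in 11 of 13, with a median of 0.22, beside 0.03 over all genes. In the other tuft-gated cells they were higher in 6 of 14, with a median of -0.04. Of 14 dissociation stress genes, 10 were higher in members labelled fl/fl (median 0.38) and 9 in the other tuft-gated cells (median 0.18). The part of stress genes in these differences was not tested. Taste cascade genes were higher in 8 of 10, with a median of 0.34. In the other tuft-gated cells they differed nearly alike, with 5 of 7 higher and a median of 0.33. Haematopoietic genes had a median of 0.01 in members, with 10 of 17 higher, and of -0.21 in the other tuft-gated cells, with 7 of 17 higher.

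**Figure D5:**
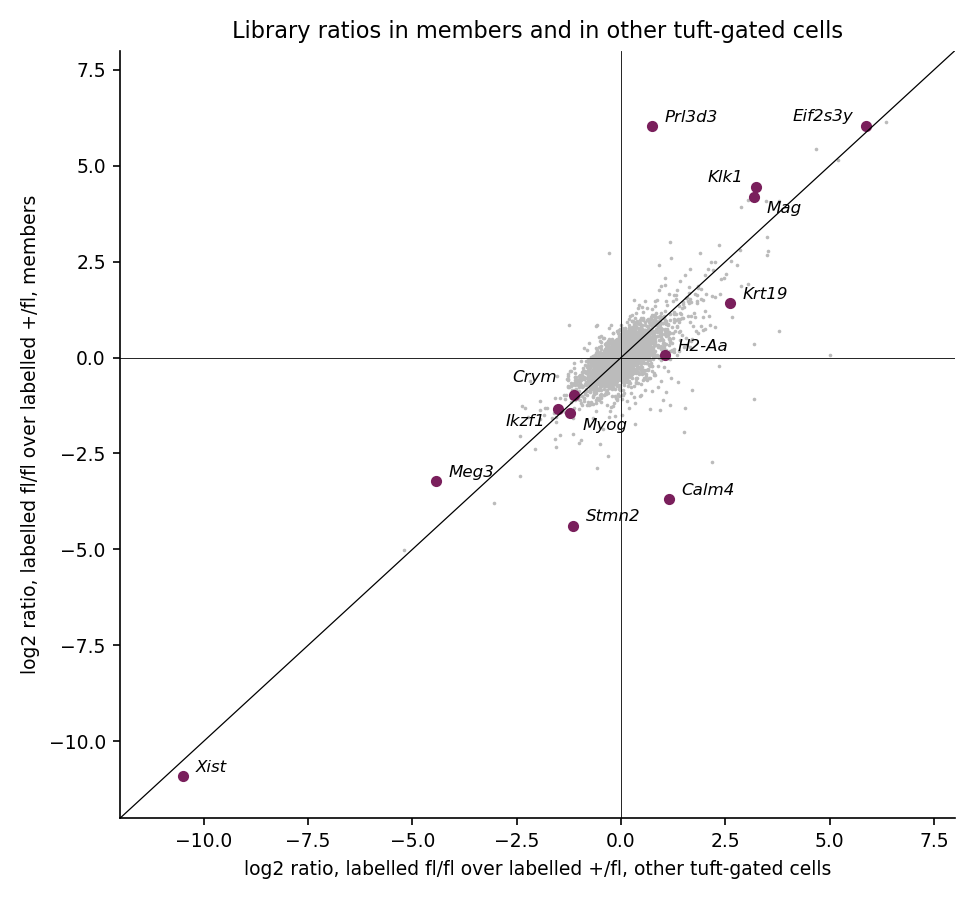
Each point is a gene, placed by its log2 ratio between libraries (labelled fl/fl over +/fl) in other tuft-gated cells (horizontal) and in members (vertical), with a line where both are equal. Ikzf1, Crym and Myog lie near the line, Prl3d3, Stmn2 and Calm4 far from it, and Xist and Eif2s3y at its ends.

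Named genes with the highest and lowest ratios between libraries were in part sex-linked or carried by single cells. The Y-linked Ddx3y and Eif2s3y had 69.6 and 65.3 CPM in members labelled fl/fl and 0 UMIs labelled +/fl, which allows up to 0.491 CPM. Xist and its antisense Tsix were the counterpart, with Tsix at 73.5 and 1.30 CPM. Mag, a myelin protein gene, was spread over cells, with 2.62 CPM in members labelled +/fl against 65.3 CPM from 59 members labelled fl/fl, which differ 24.9-fold (14.9 to 44.7), and 3.64 and 41.2 CPM in the other tuft-gated cells. Prl3d3, a placental prolactin gene, had 0 UMIs and 64.4 CPM, but from 6 members, of which 1 held 50.3%. The kallikrein genes Klk1 and Klk1b16 had 1.80 and 60.5 CPM and 0.327 and 57.1 CPM, and 1 member held 67.1% and 72.0% of their UMIs labelled fl/fl.

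On the lower side, Stmn2, a neuronal microtubule gene, had 55.8 CPM (50.1 to 62.1) in 54 members labelled +/fl and 1.73 CPM (0.471 to 4.43) in 3 labelled fl/fl. The other tuft-gated cells differed less, with 32.3 and 14.1 CPM. The imprinted RNA Meg3 had 137 and 13.8 CPM in members, from 65 and 3 cells, and 35.1 and 0.662 CPM in the others. Myl1 had 136 and 0.432 CPM, as above from few cells. Calm4 had 85.0 and 5.62 CPM, and 1 member held 88.8% of its UMIs labelled +/fl. Without that cell and its counterpart the Calm4 log2 ratio was -1.38 in place of -3.70.

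Markers of other cells were mixed. Of the T-lineage, ionocyte, fibroblast and endothelial, and red cell lists, 0 genes passed the level filter in both libraries. Summed myeloid and dendritic markers had 99.4 and 251 CPM in members and 101 and 149 CPM in the others, and 1 member held 40.6% of them labelled fl/fl. Cell-cycle genes had 105.4 and 78.7 CPM in members against 2212 and 696 CPM in T-lineage cells. Microfold markers were lower in members in 4 of 4 genes labelled +/fl and 7 of 7 labelled fl/fl, with medians of -0.49 and -0.67, though 2 and 1 of them passed the filter only through the others. Dissociation stress genes had medians of -0.11 and 0.05 for members against the others, with 5 and 8 of 14 higher. Secretory markers summed to 1259 and 1118 CPM in members and 1759 and 1820 CPM in the others, and 1 member held 27.5% of them labelled +/fl. Keratinocyte markers had 379 CPM in members and 148 CPM in the others labelled +/fl, where 3 of 3 were higher and 1 member held 37.4%, and 123 and 136 CPM labelled fl/fl. Neuronal and neuroendocrine markers had 555 and 424 CPM labelled +/fl, with 6 of 6 higher, and 538 and 672 CPM labelled fl/fl, with 3 of 9 higher. Of those 9, Chgb, Scg2 and Insm1 passed the filter only through the others and Chga only through members. The part of these markers in the other results was not tested.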

How the data were processed

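The authors deposited raw UMI counts per gene and barcode, and the submitters' processing notes list Cell Ranger and Seurat without saying what each did. The matrix headers carry the version string 3.1.0. The genome build is not given in the sources used here. Members and gene lists were chosen with earlier results of these data known.

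Counts were summed over the cells of a group in each library and divided by the total (CPM), with exact Poisson intervals, and shares have Clopper-Pearson intervals (95%, counting error only). Ratios are log2 with 1 CPM added. A zero was read with a limit of 3 counts. T-lineage cells, the background for shares, had Cd3d, Cd3e and Cd3g at 5 or more per 10000 UMIs outside the gate. Scrublet (scanpy 1.11.5) marked 2 and 0 kept cells by its own threshold, so the highest scores were set aside at 0.8% per 1000 cells, as an alternative only. TMM factors came from edgeR 4.0.16. The counting script recovered most changes larger than 2-fold planted in simulated Poisson counts of genes of at least 50 CPM. Changes of just 2-fold, lower genes and unevenness between cells were not simulated.

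Named genes are the 12 highest and 10 lowest of members against other tuft-gated cells (at least 50 CPM), the 6 highest and 6 lowest between libraries, the given markers, list members and the 5 most co-detected genes. Genes named outside it were chosen after their values were seen. Of 30 lists, those with few measured genes are given by summed level or left out. Gene positions are those of GENCODE for GRCm38 and entered no calculation. Overlapping genes were counted as deposited.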

Additional observations from a re-analysis of the deposited data

Results flagged for a closer look

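The MHC class II genes drew attention because all of them that were measured moved one way in one library and the other way in the other. The median log2 ratio of members over other tuft-gated cells was 0.53 labelled +/fl, with 8 of 8 genes higher, and -0.47 labelled fl/fl, with 9 of 9 lower. Among those 9, Ciita could only be lower, since it passed the filter only through the other tuft-gated cells. The difference between the libraries was not tested, since there is 1 library per genotype. Over the alternatives the median ran from -0.46 to 0.72 labelled +/fl and from -0.92 to -0.11 labelled fl/fl.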

How the results depend on the processing

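No paired analysis was possible because each genotype has 1 library, and for the same reason no replicate could be left out. The member share of tuft-gated cells (16.2% labelled +/fl and 22.2% labelled fl/fl) was 23.4% and 31.1% with 1 UMI required, 10.6% and 15.2% with 4, 12.7% labelled +/fl with 2 per 10000, 10.2% and 17.4% with a tuft gate of 20, 18.8% and 28.1% with a stricter cell filter, 8.47% and 11.4% on Rgs21 alone, and 19.7% and 41.6% in cells of 10000 to 20000 UMIs. Thinned to 2000 UMIs it was 5.31% and 10.2%, to 5000 UMIs 11.7% labelled +/fl, and to 8000 UMIs 31.3% labelled fl/fl. The share was higher labelled fl/fl than labelled +/fl under every alternative run for it. The count of 88 genes at 2-fold the same way in both libraries was 136 with per-cell CPM, 206 with no CPM minimum, and 54 against other tuft-gated cells with 2 or more Gnat3 UMIs, a comparison added after seeing the data. The count of 327 between libraries was 1046 with no CPM minimum. Calm4 between libraries changed from -3.70 to 1.24 with 2 UMIs per 10000 and to 1.08 with a gate of 20, and the cause was not tested. Of the single-gene values under the alternatives, 529 moved by less than their counting interval, 308 by more and 2 reversed. These include the alternative with no CPM minimum, which changes no ratio, so its values say nothing about stability. Of 61 list medians, 27 took the other sign under at least 1 alternative, among them labelled +/fl MHC class II (0.53 to -0.46, Rgs21 alone), muscle (1.87 to -0.47, Rgs21 alone) and secretory genes (1.91 to -1.24, cells of 10000 to 20000 UMIs). Libraries of 304 and 174 members limit the values of genes found in few cells.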
